A study of Oreochromis niloticus with 16 samples.

Results

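miR-192 and miR-194 are described here across 16 small RNA libraries of Nile tilapia (Oreochromis niloticus), from the rows of the deposited files whose mature name is miR-192, miR-194 or miR-215 with an optional letter. The rule found 4 of the 734 named entries, an entry being one arm of one precursor locus. They are miR-192-5p and miR-192-3p of the hairpin mir-192, and miR-194a-5p and miR-194a-3p of the hairpin mir-194a. The number of entries found under the name miR-215 was 0, and miR-215 was not analysed here.

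A miRNA is cut from a hairpin precursor that can release a mature RNA from its 5p arm, its 3p arm or both. The mature RNA guides repression of mRNAs, mainly through its seed near the 5′ end. In mammals, miR-194 lies beside miR-192 at one locus and beside miR-215 at another, and miR-192 and miR-215 share their seed. These miRNAs are known for epithelia of endodermal origin and of the kidney, above all liver and intestine, and in human cells they respond to the tumour suppressor p53.

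All fish were of the Chitralada strain and untreated as far as the labels say. The stages are embryos of 2 and 3 dpf (days post-fertilization, both labelled gastrula and segmentation), 4 dpf (pharyngula) and 5 dpf (hatching), and late larvae of 10 dpf. Adult libraries came from white muscle, red muscle and brain of 1 female and 1 male library each, from ovary, testis and female heart, and from liver and eye of mixed sex. Each stage or tissue of a given sex has 1 library, and the titles of the female white and red muscle libraries name the same fish. Levels are read counts after each read was split over the loci it matches, scaled to a library total of 1000000 such counts (CPM). Divided totals ran from 833147 to 11517367 reads. Intervals are exact Poisson 95% intervals for levels, exact binomial 95% intervals for ratios between libraries, and Wilson 95% intervals where a share is given. They cover the counting error of reads only, not the spread between fish or libraries. The libraries had no molecular identifiers, so reads were counted and not molecules. In bulk tissue, fewer cells that make a miRNA and less of it per cell cannot be told apart.

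The tissue labels were checked against marker miRNAs. The hepatocyte miRNA miR-122 summed to 452228 CPM over its 2 arms in liver. The 9 skeletal muscle names (miR-1, miR-133 and miR-206) summed to 280629 and 310129 CPM in white muscle of the female and the male, and to 28277 and 29290 CPM in their red muscle counterparts, below the 33999 CPM of heart. The 16 neuronal names (miR-124 and miR-9) summed to 67259 and 52456 CPM in brain of the female and the male, and the 2 names of the gonad miRNA miR-202 to 12187 CPM in testis and 1165 CPM in ovary. Each of these tissues had its markers as a sum, but not each name stood out. For red muscle the sum did not set the label apart either, since it was higher at 5 dpf (56036 CPM) and at 10 dpf (33327 CPM). In the edgeR test of brain against red muscle described below, miR-1-3p had a log2 fold change of -1.51 (edgeR adjusted p = 0.0965). In the same test miR-133a-3p had -9.45 and miR-206-3p -10.4. Ovary also held 3317 CPM of miR-122-5p.

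miR-192-5p was the leading member, and its level in CPM was highest in hatching embryos and in liver. It stood at 40683 CPM in liver (40344 to 41025), the 5th most abundant of 345 names detected there, and at 4.07% of the reads of the library. At 5 dpf it stood at 40749 CPM (40544 to 40956), again 5th, here of 523 names. Hatching embryos and adult liver thus had the same share of miR-192-5p within counting error, with a ratio of 1.00 (0.992 to 1.011). That equality depends on the scaling of the libraries. With whole-number counts, in which a read counts at each locus it matches, it was 17658 CPM at 5 dpf and 22971 CPM in liver. The ratio was 0.52 with TMM factors (trimmed mean of M-values), which are meant to correct for composition. These factors were estimated on whole-number counts but applied to divided totals. The gap between these totals varies by library, so TMM-scaled ratios of levels are approximate. miR-192-5p was read in each of the 16 libraries, with 273603 reads in all, of which 77.1% came from the 5 stages. The 5 dpf library alone gave 150391 of them. This share pools reads over libraries of unequal depth, so it follows depth as well as level.

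**Figure D1:**
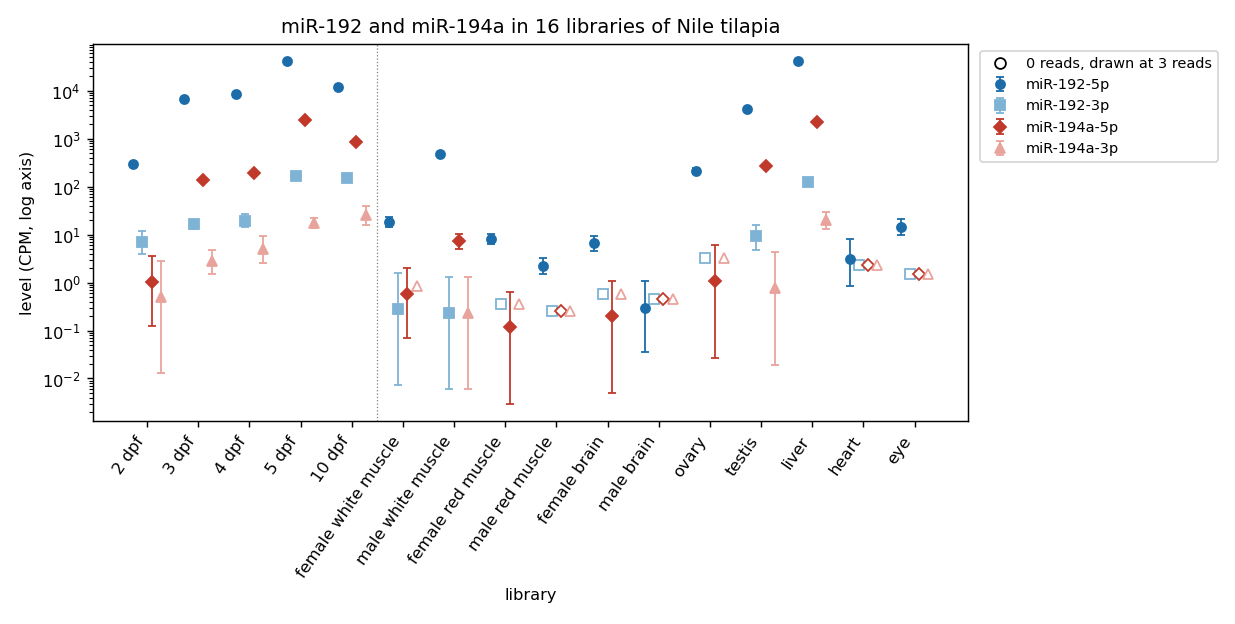
Level in CPM on a log axis (vertical) of the 4 members in each library (horizontal), with stages left of the dotted line and adult tissues right of it; bars are exact Poisson 95% intervals, and open symbols are members with 0 reads, drawn at the level of 3 reads. miR-192-5p has the most reads of the 4 members in each of the 16 libraries, and peaks at 40749 CPM at 5 dpf and 40683 CPM in liver.

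Among adult tissues, liver was followed by testis, then by male white muscle and ovary. Testis had 4082 CPM of miR-192-5p (3974 to 4193), male white muscle 484 CPM (463 to 505) and ovary 213 CPM (185 to 245). The liver level was 9.97 times that of testis (9.69 to 10.3), or 18.2 times when miR-122 was left out of the library totals, and each of these steps lay outside counting error. The remaining libraries were low, and neighbours in their order overlapped except for male brain at the bottom. Female white muscle had 18.4 CPM (14.2 to 23.4) and eye 14.5 CPM (9.68 to 20.8). Female red muscle had 8.01 CPM (6.23 to 10.1), female brain 6.69 CPM (4.63 to 9.35), heart 3.12 CPM (0.851 to 7.995) and male red muscle 2.26 CPM (1.47 to 3.31). Male brain was lowest, with 2 reads or 0.295 CPM (0.0358 to 1.07), which is below the level that 3 reads would give and does not overlap with male red muscle. The white muscle pair alone spanned 18.4 to 484 CPM, so the place of white muscle in this order differed between its 2 libraries.

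miR-194a-5p had the same order over liver, testis and male white muscle, at a lower level. In the other adult libraries it had too few reads to be ordered. It stood at 2177 CPM in liver (2099 to 2257), 36th of the names there, and at 268 CPM in testis (241 to 298), a ratio of 8.11 (7.26 to 9.09), or 14.8 without miR-122 in the totals. At 5 dpf it reached 2420 CPM (2370 to 2471), 1.11 times the liver level (1.07 to 1.16). This direction turned under TMM scaling, with a ratio of 0.58. It also turned with whole-number counts, with 1049 CPM at 5 dpf and 1229 CPM in liver. Male white muscle had 31 reads, or 7.23 CPM (4.91 to 10.3). Female white muscle had 2 reads, and ovary, female red muscle and female brain had 1 read each. Male red muscle, male brain, heart and eye had 0 reads, with 3 reads worth between 0.260 CPM in male red muscle and 2.34 CPM in heart. Outside liver, testis, male white muscle and the stages, miR-194a-5p was therefore not above 2 reads in any library.

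Dividing reads over loci changed 0 of the 64 member values by more than 1e-05 reads. By contrast, 317 entries of the series lost reads to division in at least 1 library. All 4 members had more than 5 reads in at least 4 libraries, the rule by which the study calls a miRNA high confidence. In order of total reads over the 16 libraries, miR-192-5p was 34th of 577 distinct names and miR-194a-5p, with 14001 reads, was 125th. miR-192-3p had 1061 reads and miR-194a-3p 139 reads in all.

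The proportion of miR-194a-5p to miR-192-5p was not fixed. It can be given as the share of miR-194a-5p in the sum of both 5p miRNAs. This share was 0.337% at 2 dpf (0.0924 to 1.22%), 1.95% at 3 dpf (1.80 to 2.10%) and 2.23% at 4 dpf (2.03 to 2.46%). It was 5.61% at 5 dpf (5.49 to 5.72%) and 6.49% at 10 dpf (6.04 to 6.97%). The first 3 stages thus lay below the last pair of stages with no overlap of intervals. Liver had 5.08% (4.90 to 5.26%) and testis 6.17% (5.57 to 6.82%), near the values of 5 and 10 dpf. Male white muscle, with 1.47% (1.04 to 2.08%), lay below liver and testis and overlapped with 3 and 4 dpf. In ovary 1 read of miR-194a-5p stood beside 201 of miR-192-5p, a share of 0.495% (0.0874 to 2.75%) that lay below liver and testis as well. As a ratio, miR-192-5p exceeded miR-194a-5p by 50.4 times at 3 dpf, 16.8 times at 5 dpf, 18.7 times in liver and 15.2 times in testis. A share within a library does not depend on how libraries are scaled. Adapter ligation can favour one miRNA over another, so the share is a share of reads and was not calibrated to molecules.

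**Figure D2:**
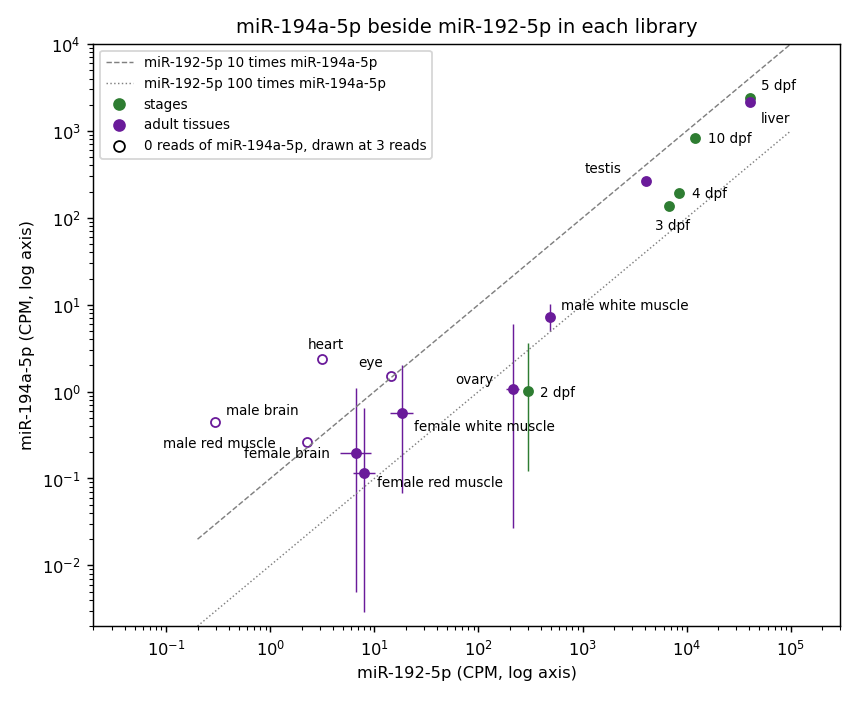
miR-194a-5p (vertical, CPM, log axis) against miR-192-5p (horizontal, CPM, log axis), 1 point per library, stages in green and adult tissues in purple; bars are exact Poisson 95% intervals, open points have 0 reads of miR-194a-5p and are drawn at 3 reads, and the dashed and dotted lines mark ratios of 10 and 100. Liver, testis, 5 dpf and 10 dpf have 14.4 to 18.7 reads of miR-192-5p for each read of miR-194a-5p, while 3 dpf, 4 dpf and male white muscle have 43.8 to 66.9.

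Over the stages the 5p members were highest at hatching, 5 dpf. miR-192-5p stood at 298 CPM at 2 dpf (274 to 323), 6825 CPM at 3 dpf (6750 to 6901), 8486 CPM at 4 dpf (8364 to 8610), 40749 CPM at 5 dpf and 12075 CPM at 10 dpf (11840 to 12313). The step from 2 to 3 dpf was 22.9-fold (21.1 to 24.9) and that from 4 to 5 dpf was 4.802-fold (4.73 to 4.88), after which the level at 10 dpf was 0.296 of that at 5 dpf (0.290 to 0.302). miR-194a-5p had 2 reads at 2 dpf, and then 135 CPM at 3 dpf (125 to 146), 193.9 CPM at 4 dpf (176 to 213), 2420 CPM at 5 dpf and 838 CPM at 10 dpf (777 to 902). Its step from 4 to 5 dpf was 12.5-fold (11.3 to 13.8), larger than that of miR-192-5p, with no overlap of intervals. miR-192-3p followed with 7.04, 16.3, 19.5, 169 and 150 CPM from 2 to 10 dpf, and miR-194a-3p with 0.503, 2.82, 5.10, 17.3 and 25.2 CPM. From 5 to 10 dpf the ratio was 0.890 for miR-192-3p (0.729 to 1.08) and 1.45 for miR-194a-3p (0.843 to 2.41), so a drop like that of the 5p partners was not seen in the 3p miRNAs. The size of these steps depends on the scaling of the libraries. With TMM scaling the 5p steps at hatching were 3.87-fold for miR-192-5p and 10.1-fold for miR-194a-5p, the step from 2 to 3 dpf was 4.49-fold for miR-192-5p, and the level from 3 to 4 dpf turned from 1.24-fold to 0.83-fold. From 5 to 10 dpf the TMM-scaled ratio was 0.59 for miR-192-5p and 0.69 for miR-194a-5p, which was 0.346 in CPM.

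A slope over the stages against the log2 of age in days was tested with edgeR (quasi-likelihood, TMM factors) on whole-number counts of 527 entries. At an adjusted p under 0.05, 8.54% of entries passed, 2.09% with a rising and 6.45% with a falling slope. None of the 4 members passed. The slope of miR-194a-5p was 2.76 on the log2 scale for each doubling of age (standard error, SE, 1.006, edgeR adjusted p = 0.0560). The other slopes were 1.19 for miR-194a-3p (SE 0.74), 0.83 for miR-192-5p (SE 0.84) and 0.47 for miR-192-3p (SE 0.62), with adjusted p from 0.319 to 0.688 from edgeR. A straight slope is a poor summary of levels that peak at 5 dpf, and each stage is 1 library. For miR-194a-5p the call turned with the setting, as the adjusted p was 0.00417 with DESeq2, 0.0498 with divided counts and 0.00710 without the 10 dpf library, and over all alternatives it ran from 0.00417 to 0.533. The median slope of all entries was 0.15 with TMM scaling and 1.20 with library totals, so a slope on library totals holds a shift common to most entries.

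The 3p arms were minor in both hairpins. Of the mir-192 reads, the 3p arm took 0.307% in liver (0.264 to 0.357%), 0.224% in testis (0.128 to 0.392%) and 0.412% at 5 dpf (0.381 to 0.445%). It took more at 2 dpf, with 2.31% (1.38 to 3.84%), and at 10 dpf, with 1.23% (1.03 to 1.46%), than at 3 dpf (0.238%, 0.190 to 0.298%) and 4 dpf (0.229%, 0.170 to 0.309%). For mir-194a the 3p share was 0.910% in liver (0.626 to 1.32%), 0.711% at 5 dpf (0.558 to 0.907%) and 2.92% at 10 dpf (1.92 to 4.42%). At 3 dpf it was 2.04% (1.19 to 3.45%) and at 4 dpf 2.56% (1.44 to 4.53%), both above 5 dpf and overlapping with 10 dpf, unlike in mir-192. In both hairpins the 3p share at 10 dpf thus lay above that at 5 dpf and in liver. The 5p arm led in every library with at least 50 reads over both arms. Summed over libraries, the minor arm held 0.386% of mir-192 and 0.983% of mir-194a reads. The median was 2.98% over 352 hairpins with both arms and at least 50 reads. Such low shares were common, as 99 of these hairpins had a smaller one than mir-192 and 130 a smaller one than mir-194a.

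**Figure D3:**
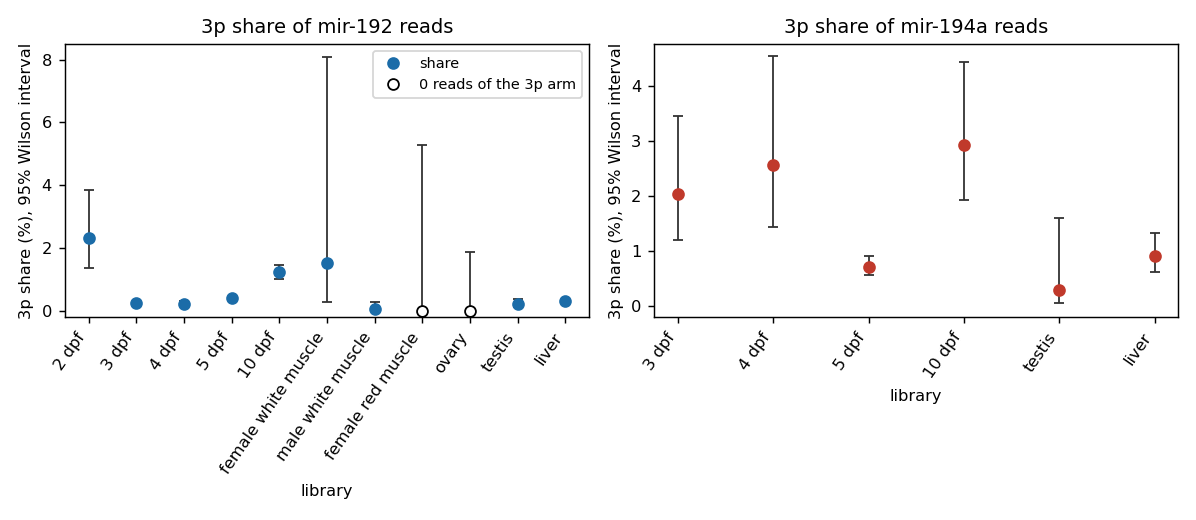
Share of the 3p arm in the reads of mir-192 (left) and mir-194a (right), in percent (vertical) by library (horizontal), for libraries with at least 50 reads over both arms; bars are Wilson 95% intervals and open points have 0 reads of the 3p arm. The point estimates stay below 3% throughout and is higher at 10 dpf than at 5 dpf and in liver in both panels.

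In white muscle, red muscle and brain, only miR-192-5p had enough reads to be tested. An entry needed 10 or more reads in 2 or more of the 6 libraries, and miR-194a-5p, with 31 reads in male white muscle and at most 2 in the other 5, did not pass it, nor did the 3p members. The CPM of miR-192-5p was 18.4 in female and 484 in male white muscle, 8.01 in female and 2.26 in male red muscle, and 6.69 in female and 0.295 in male brain. Both white muscle libraries were above all 4 libraries of red muscle and brain. The range of levels in red muscle overlapped with that in brain, although male brain lay below both red muscle libraries.

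miR-192-5p was lower in brain than in white muscle, by a log2 fold change of -6.65 (SE 1.67, edgeR adjusted p = 0.00469). Many entries differ between these tissues, as 57.1% of the 494 tested passed, 31.4% as higher and 25.7% as lower in brain. It was also lower in red than in white muscle, with -5.69 (SE 1.58, edgeR adjusted p = 0.0402), where 11.1% of entries passed, 5.06% as higher and 6.07% as lower. Between brain and red muscle the log2 fold change was -0.96 (SE 1.37, 95% interval -3.64 to 1.72, edgeR adjusted p = 0.580). This difference missed the threshold, which 61.5% of entries passed (32.2% as higher and 29.4% as lower in brain). The comparisons share libraries and are not independent. Both calls rest on the male white muscle library. Without it the log2 fold change of brain against white muscle was -2.81 (edgeR adjusted p = 0.0960) and that of red against white muscle was -1.84 (edgeR adjusted p = 0.495). The call for red against white muscle was also lost without the female white muscle library (edgeR adjusted p = 0.124), without the male red muscle library (edgeR adjusted p = 0.229), with library totals (0.0777), with a minimum of 50 reads (0.107) and with divided counts (0.0599). In these 5 cases the log2 fold change stayed between -6.67 and -5.18, so that only the threshold was missed.

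**Figure D4:**
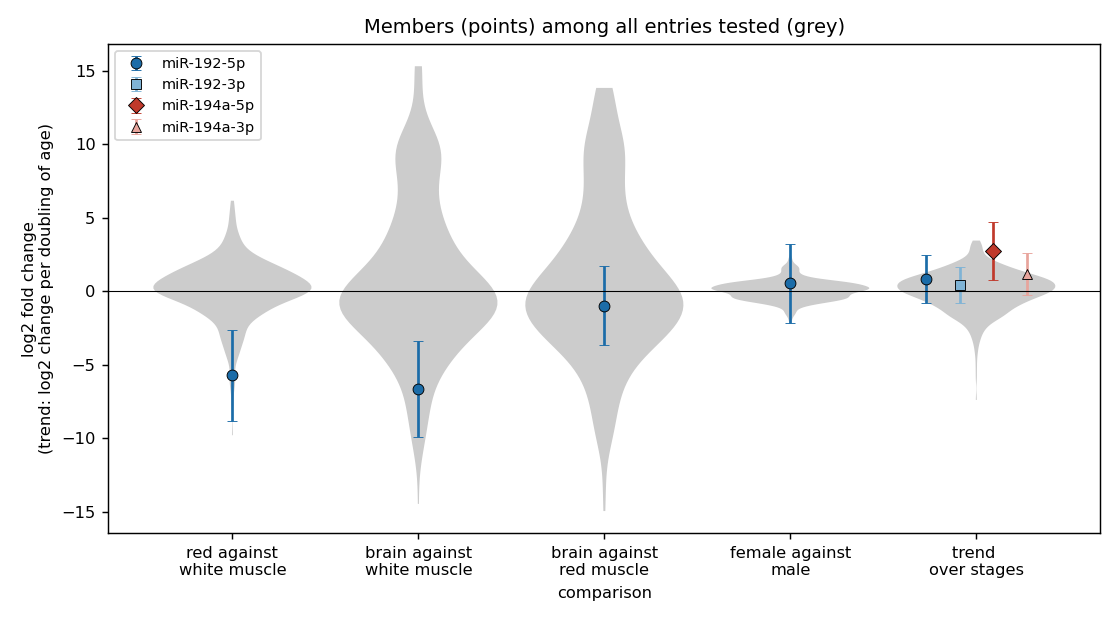
Log2 fold change from edgeR (vertical; for the trend, log2 change for each doubling of age) in the 5 comparisons (horizontal); grey shapes show the distribution over all entries tested, and points with bars show the members that were tested with their 95% intervals. miR-192-5p lies at -5.69 and -6.65 for red muscle and brain against white muscle, and at -0.96 and 0.56, with intervals that span 0, for brain against red muscle and for female against male.

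No sex difference common to the 3 tissues passed the test for miR-192-5p. With tissue as a block, the log2 fold change of female against male was 0.56 (SE 1.37, 95% interval -2.14 to 3.25, edgeR adjusted p = 0.993). With edgeR 0 of 494 entries passed, or 0%, and 5 had an unadjusted p under 0.05, and with DESeq2 these numbers were again 0 and 5. Within tissues the libraries moved apart in opposite directions. Male white muscle was 26.4 times higher than female white muscle (20.6 to 34.3), whereas female red muscle was 3.55 times higher than male red muscle (2.23 to 5.81), and female brain was 22.7 times higher than male brain (5.81 to 195, from 34 and 2 reads). Testis was 19.1 times higher than ovary (16.6 to 22.1). Sex, fish and library cannot be told apart in any of these pairs, and testis and ovary are also different organs.

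Marker miRNAs of other cell types were read beside these values. miR-122-5p of hepatocytes was at 93.1 CPM in male and 28.5 CPM in female white muscle, against 1.51 and 0.434 CPM in red muscle of the female and the male and 7.87 and 10.8 CPM in brain of the female and the male. The 11 epithelial names (miR-200, miR-203, miR-205 and miR-429) summed to 2836 and 2550 CPM in white muscle of the female and the male, 255 and 78.3 CPM in red muscle of the female and the male, and 39.9 and 773 CPM in brain of the female and the male. Of these names, 0 and 1 had no reads in white muscle of the female and the male. In the test of red against white muscle, 5 of 10 epithelial entries and miR-122-5p were lower, against 6.07% of all entries, so miR-192-5p moved with them there, and their part in the result was not tested. The 5 entries are not separate miRNAs, since miR-205-5p is counted at mir-205-1 and again at mir-205-2, with a log2 fold change of -4.03 at each. Another of them, miR-205-3p, had 5.36 and 2.33 CPM in white muscle of the female and the male. Its level was 0.232 CPM in female red muscle and 0 in male red muscle and both brain libraries. It reached the count minimum only through white muscle, so its direction was fixed by the filter and it carries no weight in this count. Within white muscle the epithelial sum was lower in the male, where miR-192-5p was higher, but its names did not all share this direction. The sum was mostly miR-205-5p, which was lower in the male (1759 against 2062 CPM), as was miR-200b-3p (81.2 against 94.6 CPM). By contrast, miR-203a-3p was higher in the male (140 against 91.8 CPM), and miR-200a-3p was nearly level (540 against 531 CPM). The miRNA of the gonad, miR-202, summed to 25.4 CPM in male and 4.23 CPM in female white muscle, and its part was likewise not tested.

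miR-192-5p did not keep a fixed proportion to miR-122-5p, although both were abundant in liver. miR-192-5p stood at 0.0904 of miR-122-5p in liver and at 0.0643 of it in ovary. In the stages miR-192-5p exceeded miR-122-5p by 2.79 to 6.90 times, and in male white muscle by 5.198 times. The ratio was 5.31 in female and 5.2 in male red muscle, from 13 and 5 reads of miR-122-5p. miR-192-5p was below miR-122-5p in female white muscle, at 0.644 of it, and in male brain, heart and eye. In female brain the ratio was 0.85, from 34 reads of miR-192-5p and 40 of miR-122-5p, too few to set an order. Testis stood apart, with 4082 CPM of miR-192-5p and 12 reads or 9.17 CPM of miR-122-5p, a ratio of 445. Conversely, ovary had 3317 CPM of miR-122-5p and 213 CPM of miR-192-5p. miR-122-3p had 0 reads in testis and in ovary. The epithelial names summed to 6906 CPM in testis, with 3 of 11 at 0 reads, led by miR-200a-3p with 5091 CPM and miR-200b-3p with 1698 CPM, and to 960 CPM in ovary, with 4 of 11 at 0. In testis miR-203a-3p had only 16.8 CPM and miR-205-5p 4.59 CPM, so the sum there was mostly miR-200. The part of the epithelial names in the testis level of miR-192-5p was not tested. The same epithelial sum was 3379 CPM in liver and from 1648 CPM at 2 dpf to 42764 CPM at 5 dpf.

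**Figure D5:**
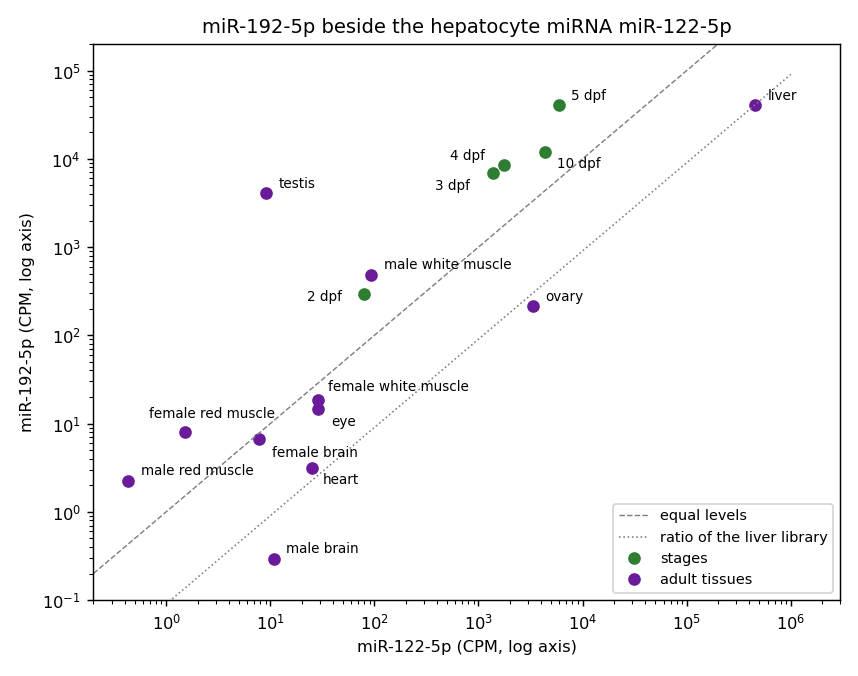
miR-192-5p (vertical, CPM, log axis) against miR-122-5p (horizontal, CPM, log axis), 1 point per library, stages in green and adult tissues in purple; the dashed line marks equal levels and the dotted line the ratio of the liver library. Testis lies far above both lines with 4082 CPM against 9.17 CPM, and ovary lies near the line of liver.

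Across the 16 libraries miR-194a-5p and miR-192-3p resembled miR-192-5p more than any other miRNA did. Likeness was measured as the Pearson correlation of log2(CPM + 1), as a description over 396 names with at least 10 CPM in at least 1 library. The libraries share depth and composition effects, and many values are at 0. The correlation with miR-192-5p was 0.94 for miR-194a-5p, 0.90 for miR-192-3p and 0.85 for miR-194a-3p. The 5 most similar other names were miR-n692-5p (0.87), the epithelial miRNAs miR-429a-3p (0.85) and miR-200b-3p (0.85), miR-21-3p (0.84) and miR-199a-5p (0.83). miR-122-5p was 9th, with 0.81. miR-n692-5p had 10089 CPM in liver and 881 CPM at 5 dpf, but 4.59 CPM in testis, against 4082 CPM of miR-192-5p in testis. For miR-194a-5p the 5 most similar names were miR-15b-3p (0.87), miR-429a-3p (0.87), miR-148a-3p (0.85), miR-106a-5p (0.85) and miR-122-3p (0.85).

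A list of other miRNAs that respond to p53 in mammals was read beside the members. Of 7 entries tested from miR-34a, miR-107, miR-143 and miR-145, 2 were higher and 0 lower in red than in white muscle, with a median log2 fold change of 1.10 against 0.24 over all entries, of which 5.06% were higher and 6.07% lower. In brain against white muscle 2 were higher and 2 lower, near the shares of all entries (31.4% and 25.7%), and over the stages 0 of 7 passed, against 8.54% of all entries. miR-143-3p, a smooth muscle miRNA, was higher in red than in white muscle by 2.40 on the log2 scale (SE 0.60, edgeR adjusted p = 0.0304), and miR-107-3p with 3.34 (SE 0.80, edgeR adjusted p = 0.0207), where miR-192-5p was lower. miR-34a-5p had 5.18 CPM in liver and 138 CPM at 5 dpf.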

How the data were processed

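Small RNA of 16 Nile tilapia samples had been sequenced on the Illumina GAIIx platform from TruSeq small RNA libraries. The deposited files give raw counts per arm and locus, in which a read is counted at each locus it matches, and the authors' estimated counts (weight), in which it is divided over its loci. For the counting step, the tool is not given in the sources used here. Genome oreNil2 and PaTMan are named for precursor positions, and the processing notes name DESeq. Lines without a mature name, 2 per file with 0 reads, were dropped. Library totals of whole-number counts spanned 1989045–27503766.

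CPM was computed from divided counts. Whole-number counts were tested with edgeR 4.0.16 under R 4.3.3 (TMM, glmQLFit, glmQLFTest, Benjamini-Hochberg over all entries tested), on entries reaching 10 reads in 2 or more of the fitted libraries, at an adjusted p under 0.05. White muscle, red muscle and brain were fitted on 6 libraries, sex with tissue as a block on the same 6, and the trend on 5. Where nothing states separate fish, p-values measure only the spread between libraries. Standard errors are the absolute log2 fold change over the square root of F. Alternatives were DESeq2 1.42.0, library totals, other count minimums, divided counts per name, a replicate block and leaving out each library, which assumes that a lone library of a tissue varies like the others. The test was also run on simulated counts with the same spread for every entry, which cannot show that the calls here hold. Other values used Python 3.11.15, numpy 2.4.6, scipy 1.17.1, pandas 2.3.3 and matplotlib 3.10.9.

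The named miRNAs are all members, the 5 names most like each 5p member, and the lists for liver, epithelium, p53, blood cells and pancreas. Members and lists were chosen with earlier results of these data known.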

Additional observations from a re-analysis of the deposited data

Results flagged for a closer look

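The female to male difference of miR-192-5p had opposite directions between tissues. The male library was 26.4 times higher in white muscle, whereas the female library was 3.55 times higher in red muscle and 22.7 times higher in brain, the last from 34 and 2 reads. Each value rests on 1 library of each sex, so the difference between tissues was not tested. In white muscle miR-194a-5p had the same direction, with 31 reads in the male and 2 in the female, and miR-122-5p was 3.26 times higher in the male (2.62 to 4.10).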

How the results depend on the processing

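The liver level of miR-192-5p over testis, 9.97 with CPM, was 10.9 with whole-number counts, 7.40 with TMM scaling and 18.2 with miR-122 left out of the library total. For miR-194a-5p it was 8.11, then 6.03 with TMM scaling and 14.8 without miR-122. TMM scaling of the stage levels was chosen after seeing the data. With it, 5 dpf over liver was 0.52 for miR-192-5p and 0.58 for miR-194a-5p, 3 over 2 dpf was 4.49 for miR-192-5p, and 4 over 3 dpf was 0.83 and 0.96 for miR-192-5p and miR-194a-5p. In that order, 5 over 4 dpf was 3.87 and 10.1, and 10 over 5 dpf was 0.59 and 0.69. Composition differs between these libraries, with TMM factors from 0.336 at 2 dpf to 3.18 at 5 dpf. These factors came from whole-number counts and were applied to divided totals, so the TMM-scaled ratios of levels are approximate.

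The number of entries passing for red against white muscle was 55, and 92 with DESeq2, 33 with library totals, 27 with a minimum of 50 reads, 24 with divided counts per name (fewer names than entries), and 5 to 78 when single libraries were left out (5 without female and 11 without male white muscle, 29 without male red muscle). The number for brain against white muscle was 282 (165 to 304 when single libraries were left out, with 174 and 165 without the female and the male brain) and for brain against red muscle 304 (169 to 300, with 198 and 169 for the same omissions). Over the stages 45 passed (11 with a rising and 34 with a falling slope), against 73 with DESeq2 (31 and 42), 0 with library totals by edgeR (65 had an unadjusted p under 0.05), 17 against age in days, and 5 to 62 when single stages were left out (16 without 2 or 3 dpf, 5 without 4 dpf, 30 without 5 dpf). Female against male stayed at 0 under the 12 alternatives run.

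With sex as a replicate block, the log2 fold change of miR-192-5p was -6.03 for red against white muscle, -7.13 for brain against white muscle and -1.09 for brain against red muscle, and no call changed. Deviations of the female libraries did not go together between tissues (correlations of -0.36, -0.14 and -0.04 over 494 entries), and the main test did not treat libraries as pairs. These correlations cannot show that libraries are independent. The titles of the female white and red muscle libraries name the same fish, and the main test of red against white muscle ignores this. For brain against red muscle, the value of miR-192-5p ran from -4.30 to 0.56 when single libraries were left out, changing sign without female red muscle (0.56) and without male brain (0.34). For female against male it ran from -1.91 to 2.71, with -0.73 and -0.76 without the female and the male red muscle library and -1.91 and -1.86 without the female and the male brain library, and it was -4.08 with tissue left out of the model (no replicate block). The cause was not tested. Depth limits the low tissues, where 3 reads are worth 0.260 CPM in male red muscle to 2.34 CPM in heart.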

Other observations

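Lists of other cell types gave the following counts beside miR-192-5p, which was lower in red than in white muscle. Of 11 blood cell entries tested, 2 were higher and 0 lower in red than in white muscle (median log2 fold change 1.73, against 0.24 over all entries, of which 5.06% were higher and 6.07% lower), namely the red blood cell miRNAs miR-144-5p and miR-451-5p-2. In brain 8 of 11 were lower than in red muscle, against 29.4% of all entries. These 8 count miR-142a-5p at mir-142a-1 and again at mir-142a-2. They also hold miR-451-5p and miR-451-3p, which had 0 CPM in both brain libraries. These reached the count minimum only through red muscle, so their direction was fixed by the filter. Of 6 pancreas entries (miR-216 and miR-217), 2 were lower in red than in white muscle, miR-216a-5p with -3.14 (SE 0.91, edgeR adjusted p = 0.0438) and miR-217-5p with -2.38 (SE 0.70, edgeR adjusted p = 0.0480). In brain, 4 of 6 were higher than in white muscle, against 31.4% of all entries, and 5 of 6 higher than in red muscle, against 32.2%. Both counts hold miR-216a-3p, and that against red muscle also holds miR-216b-3p. In brain of the female and the male, miR-216a-3p had 9.64 and 3.99 CPM and miR-216b-3p 5.51 and 3.10 CPM. Neither was above 0.700 CPM in muscle. They reached the count minimum only through brain, so their direction was fixed by the filter. These pancreas names were also present in liver, where they summed to 9962 CPM with none of the 6 at 0 reads, the highest sum of the 16 libraries.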
